A study of Homo sapiens with 18 samples.

Results

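CD63+ extracellular vesicles (EVs) of JinB8 cells were set against IgG beads in HUVEC, endothelial cells of the human umbilical vein. The arrays were chosen by the bracketed part of their titles, which gave 3 arrays with JinB8 CD63+ EVs and 3 arrays with IgG beads, or 6 of the 18 arrays in the series. EVs are membrane-bound particles that cells shed, and CD63 is a tetraspanin carried by many vesicles of endosomal origin. JinB8 is a mutant of the Jurkat T-cell line that lacks CD47, the receptor for thrombospondin-1 and counter-receptor of SIRP-alpha. JinB8 is 1 line, so loss of CD47 cannot be told apart from other differences between it and Jurkat. Per the labels, donor T cells were grown overnight in serum-free HITES medium. Their concentrated medium was pooled before vesicles were isolated by size exclusion chromatography. All 3 arrays of a vesicle group may thus come from HUVEC given vesicles of 1 pool. The HUVEC, labelled as normal endothelial cells with no genetic change, were then kept for 3 days with immunocaptured JinB8 CD63+ EVs or with the IgG control beads alone. For comparison, the same table holds 3 arrays each with JinB8 MHC1+ EVs, Jurkat CD63+ EVs and Jurkat MHC1+ EVs, and 3 of untreated HUVEC. The free text of 2 of the 3 JinB8 CD63+ arrays names the donor JINB9 or JINB10, while the brackets of all 3 say JINB8. Nothing in the labels says that replicate arrays are of separate cultures. The p-values then cover just the variation among these arrays, and that may be technical. In RNA from a whole culture, fewer cells of a type and less RNA per cell cannot be told apart.

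Endothelial cells make cholesterol and fatty acids through enzymes whose genes are switched on by the SREBP transcription factors when sterol in the endoplasmic reticulum is low. INSIG proteins hold SREBP back when sterol is plentiful, and INSIG1 is itself an SREBP target. The same cells secrete the vasoconstrictor endothelin-1, ligands and targets of the TGF-beta pathway, and a collagen-rich matrix. Endothelial cells in culture divide, and genes of mitosis are expressed mostly in the G2 and M phases, so that their level in a culture follows the share of dividing cells.

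IgG beads replicate 3 stood apart before any comparison. The SD of its log2 signals over all probe sets was 1.57, against 2.12, 2.19 and 2.05 on the 3 JinB8 CD63+ arrays and 2.22 and 2.17 on IgG beads replicates 1 and 2. Its median correlation with the other 17 arrays was 0.636, against 0.982, 0.989 and 0.975 for the JinB8 CD63+ arrays. Replicate 3 of the untreated cells stood apart in the same way (SD 1.56, median correlation 0.649), and these 2 arrays correlated at 0.83 with each other. A fit of all 18 arrays was therefore set beside a fit of the 16 arrays without these 2, in which 3 JinB8 CD63+ arrays faced 2 bead arrays. Differences with no fit named are those of the 16 arrays, and the 18-array value is given beside it for the called genes and for most list medians. The labelled cell type was borne by its markers on 5 of the 6 arrays. PECAM1 stood at 11.64, 11.64 and 11.48 with JinB8 CD63+ EVs, against 11.70, 11.81 and 5.90 with IgG beads, and CDH5, the cadherin of endothelial junctions, at 11.51, 11.62 and 11.63 with JinB8 CD63+ EVs, against 11.89, 11.82 and 6.97 with IgG beads. On bead replicate 3 both markers were thus several log2 units below the other 5 arrays. All levels here are log2 signals of 1 probe set per gene and cannot be compared between genes. The SD and the median of all signals also differed between arrays, so that comparisons of levels between arrays carry that difference.

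Among 18417 genes, 5 rose and 12 fell with JinB8 CD63+ EVs in the 16 arrays at a limma adjusted p under 0.05. That is 0.0271% of genes called higher and 0.0652% called lower, while 1234 genes (6.7%) had an unadjusted p under 0.05. In the 18 arrays, STC1 was the 1 gene that rose (0.00543%) and 0 genes fell (0%), with 272 genes (1.48%) at an unadjusted p under 0.05. The rises were STC1, INSIG1, FASN, DHCR7 and FADS2. The falls were ADGRG4, TGFB2, P3H2, ASPM, BUB1B, SPAG5, MKI67, TGFBI, COL12A1, RAB3B, EDN1 and KRT7. Of these 17 genes, 7 had JinB8 CD63+ arrays that did not overlap with any of the 3 bead arrays: the 5 that rose, MKI67 and P3H2. Over all genes, 1.7% lay wholly above and 2.24% wholly below the 3 bead arrays. All 17 were apart from bead replicates 1 and 2, the bead arrays on which they were called. The count of 7 thus tells only where bead replicate 3 lay and is no separate support for the calls. All 12 genes that fell were lower on bead replicate 3 than on both other bead arrays, so their fall was measured against bead replicates 1 and 2. With untreated cells in place of the beads, 5 genes were called higher (0.0271%) and 3 lower (0.0163%), with 909 (4.94%) at an unadjusted p under 0.05; STC1 then differed by 1.98, INSIG1 by 1.64, FASN by 1.25, P3H2 by -1.30 and TGFBI by -1.04. Leaving out 1 of the 5 arrays left between 1 and 7 genes called, and STC1 alone remained without bead replicate 1.

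**Figure D1:**
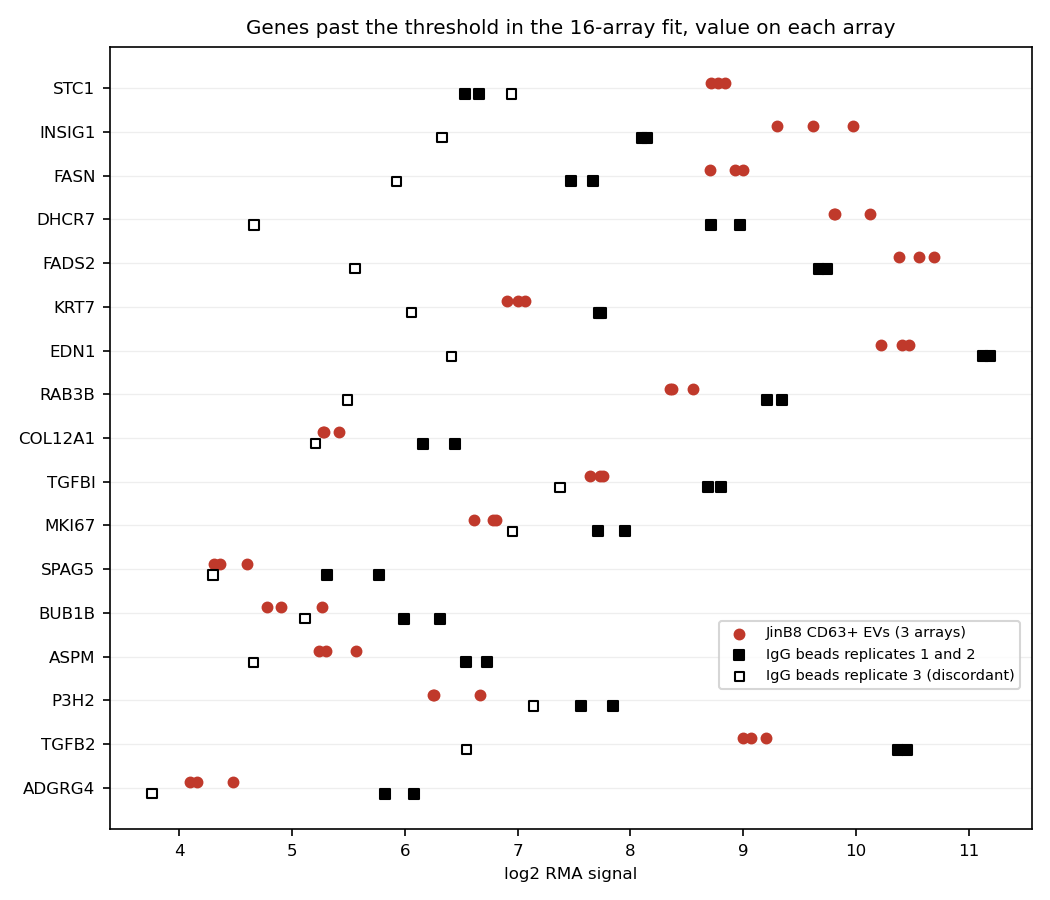
Log2 RMA signal (x axis) of the 17 genes past the threshold in the 16 arrays, 1 gene per row, ordered from the largest rise to the largest fall. Red circles are the 3 JinB8 CD63+ arrays, filled squares IgG beads replicates 1 and 2, and hollow squares IgG beads replicate 3. STC1 lies between 8.72 and 8.84 with JinB8 CD63+ EVs, above all 3 bead arrays, while EDN1 lies below bead replicates 1 and 2 and above replicate 3.

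STC1 encodes stanniocalcin-1, a secreted glycoprotein hormone first known from calcium control in fish. It stood at 8.78, 8.84 and 8.72 with JinB8 CD63+ EVs, against 6.53, 6.66 and 6.94 with IgG beads. No array of one group came near the other, and bead replicate 3 was the highest of the bead arrays. The rise was 2.18 ± 0.14 on the log2 scale (SE, 3 arrays against 2; limma adjusted p = 2.8e-06), a 4.53-fold difference, in the 16 arrays and 2.06 ± 0.18 (3 against 3; limma adjusted p = 0.00017) in the 18 arrays. STC2, its paralog, differed by -0.24 ± 0.13 in the 16 arrays and was not called.

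The level of STC1 also differed among the vesicle groups. Its mean ± SD over 3 arrays was 8.78 ± 0.06 with JinB8 CD63+ EVs and 7.67 ± 0.17 for the MHC1+ capture of the same donor. It was 8.23 ± 0.05 with Jurkat CD63+ EVs and 7.27 ± 0.17 for the Jurkat MHC1+ capture, 6.67 ± 0.25 in untreated cells and 6.71 ± 0.21 with IgG beads. Untreated cells and IgG beads did not differ beyond their spread, and the 4 vesicle groups lay above both. The difference of JinB8 CD63+ from JinB8 MHC1+ EVs, in which the bead arrays cancel out, was 1.10 ± 0.13 (limma adjusted p = 0.0018). Against Jurkat CD63+ EVs it was 0.55 ± 0.13, with a 95% interval from 0.28 to 0.82 and a limma adjusted p of 0.87 over all genes.

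**Figure D2:**
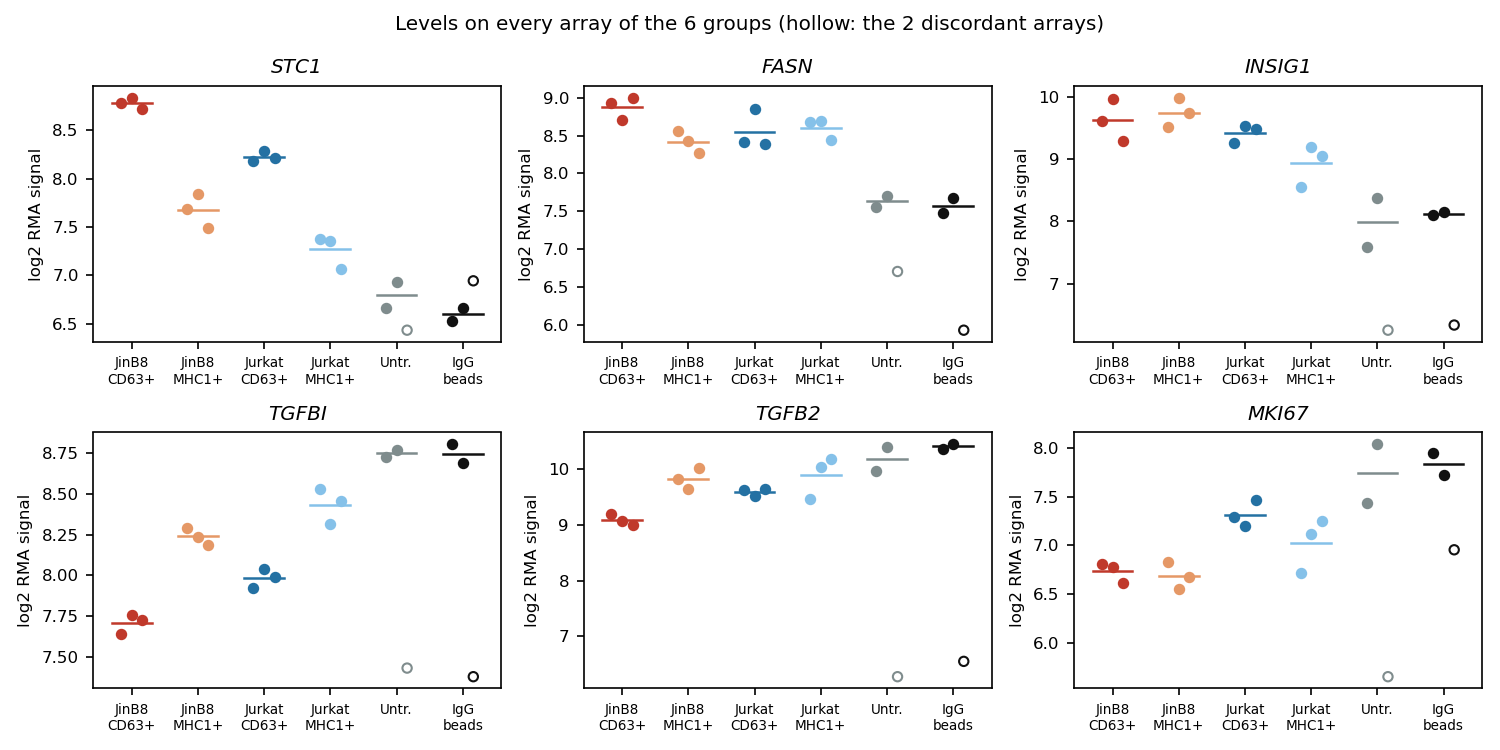
Log2 RMA signal (y axis) of 6 genes on every array, by group (x axis), with JinB8 CD63+ EVs at the left and IgG beads at the right. Points are arrays, lines are means without the 2 discordant arrays, and hollow points are those 2 arrays. STC1 and FASN are highest and TGFBI and TGFB2 lowest with JinB8 CD63+ EVs among the filled points' means, and hollow points lie below the other control arrays of all 6 genes except STC1 on the bead array.

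Genes of lipid synthesis and sterol control made up 4 of the 5 rises. Of 47 measured in these lists, 4 were called higher, beside 0.0271% of all genes. The lists were chosen with earlier results of these data known. The early steps of cholesterol synthesis run from acetyl-CoA through mevalonate to squalene. HMGCS1, which makes HMG-CoA, stood at 8.23, 8.61 and 7.68 with JinB8 CD63+ EVs, against 6.68, 6.52 and 5.11 with IgG beads, so that the groups did not overlap. Its difference was 1.57 ± 0.45 in the 16 arrays, which did not pass the test (limma adjusted p = 0.44). Of the other members of this step, ACAT2 differed by 1.16 ± 0.44, IDI1 by 1.07 ± 0.27, SQLE by 0.91 ± 0.29, FDPS by 0.85 ± 0.20, MVD by 0.58 ± 0.18 and MVK by 0.56 ± 0.20. PMVK and GGPS1 went the other way, at -0.23 ± 0.12 and -0.19 ± 0.18. None of these 9 genes was called in either fit.

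From lanosterol on, DHCR7, which reduces 7-dehydrocholesterol to cholesterol, was called. DHCR7 stood at 9.80, 10.12 and 9.81 with JinB8 CD63+ EVs, against 8.97, 8.71 and 4.66 with IgG beads, and rose by 1.07 ± 0.16 (limma adjusted p = 0.018) in the 16 arrays. In the 18 arrays its difference was 2.46 ± 0.85, larger through the low value on bead replicate 3 and no longer called (limma adjusted p = 0.87). MSMO1, the sterol C4-methyl oxidase, stood at 10.29, 10.47 and 10.02 with JinB8 CD63+ EVs, against 8.99, 8.84 and 4.76 with IgG beads, a difference of 1.34 ± 0.32 (limma adjusted p = 0.24) in the 16 arrays and 2.73 ± 1.11 in the 18. The demethylase CYP51A1 differed by 1.02 ± 0.30, the lanosterol synthase LSS by 0.91 ± 0.24, the reductase TM7SF2 by 0.90 ± 0.21, the isomerase EBP by 0.90 ± 0.36 and NSDHL by 0.63 ± 0.24. SC5D, at 0.18 ± 0.48, showed the smallest difference of these 8 genes.

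Over both steps, 1 of 17 cholesterol synthesis genes rose and 0 fell in the 16 arrays, beside 0.0271% higher and 0.0652% lower over all genes. The median difference of the 17 was 0.90 in the 16 arrays and 1.25 in the 18, beside medians of 0.01 and -0.05 over all genes. In 14 of the 17 (82.4%) all 3 JinB8 CD63+ arrays lay above bead replicates 1 and 2, beside 11.9% of all genes. In 12 (70.6%) they lay above all 3 bead arrays, beside 1.7% of all genes, a count in which the discordant bead replicate 3 takes part. The mean level of the 17 genes was 7.81, 8.21 and 7.75 with JinB8 CD63+ EVs, against 7.23, 7.06 and 5.70 with IgG beads. Against bead replicate 1 alone the median was 0.78 and against bead replicate 2 alone 0.98, a comparison added after seeing the data.

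In fatty acid synthesis, 2 of 14 genes rose in the 16 arrays, beside 0.0271% of all genes. FASN, which builds palmitate, stood at 8.93, 8.71 and 9.001 with JinB8 CD63+ EVs, against 7.48, 7.67 and 5.93 with IgG beads, and rose by 1.31 ± 0.16 in the 16 arrays (limma adjusted p = 0.0055) with a difference of 1.85 ± 0.37 in the 18. FADS2, the delta-6 desaturase of polyunsaturated fatty acids, stood at 10.56, 10.69 and 10.38 with JinB8 CD63+ EVs, against 9.74, 9.67 and 5.56 with IgG beads, a rise of 0.84 ± 0.13 in the 16 arrays (limma adjusted p = 0.027) with a difference of 2.22 ± 0.95 in the 18. In both genes every JinB8 CD63+ array was above every bead array. The stearoyl-CoA desaturase SCD stood at 10.58, 10.81 and 10.54 with JinB8 CD63+ EVs, against 9.24, 9.59 and 5.91 with IgG beads, and its difference of 1.23 ± 0.23 in the 16 arrays missed the threshold (limma adjusted p = 0.079), as did that of 2.39 ± 0.74 in the 18. FADS1, the delta-5 desaturase, differed by 0.81 ± 0.20. The other 10 genes, among them ACACA (0.31 ± 0.24), ACLY (0.15 ± 0.17) and ELOVL6 (0.12 ± 0.34), lay between -0.28 and 0.37 in the 16 arrays. The median of the 14 genes was 0.23 in the 16 arrays, with 10 above 0, and 1.31 in the 18, with all 14 above 0.

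Among 16 genes of sterol sensing, uptake and efflux, whose median was 0.19 in the 16 arrays and 0.54 in the 18, INSIG1 rose. INSIG1, the anchor that keeps SREBP in the endoplasmic reticulum, stood at 9.62, 9.98 and 9.30 with JinB8 CD63+ EVs, against 8.10, 8.14 and 6.33 with IgG beads. Its rise was 1.51 ± 0.25 in the 16 arrays (limma adjusted p = 0.033), and its difference in the 18 was 2.11 ± 0.50 (limma adjusted p = 0.87). SREBF2, which encodes the SREBP of cholesterol genes, stood at 8.85, 8.76 and 8.82 with JinB8 CD63+ EVs, against 8.09, 8.19 and 5.74 with IgG beads, a difference of 0.67 ± 0.13 (limma adjusted p = 0.12). SREBF1 differed by 0.39 ± 0.14 and INSIG2 by -0.21 ± 0.39. LPIN1, a phosphatidate phosphatase, differed by 0.70 ± 0.25 and the sterol exporter ABCG1 by 0.48 ± 0.14, while the exporter ABCA1 was at -0.03 ± 0.21.

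**Figure D3:**
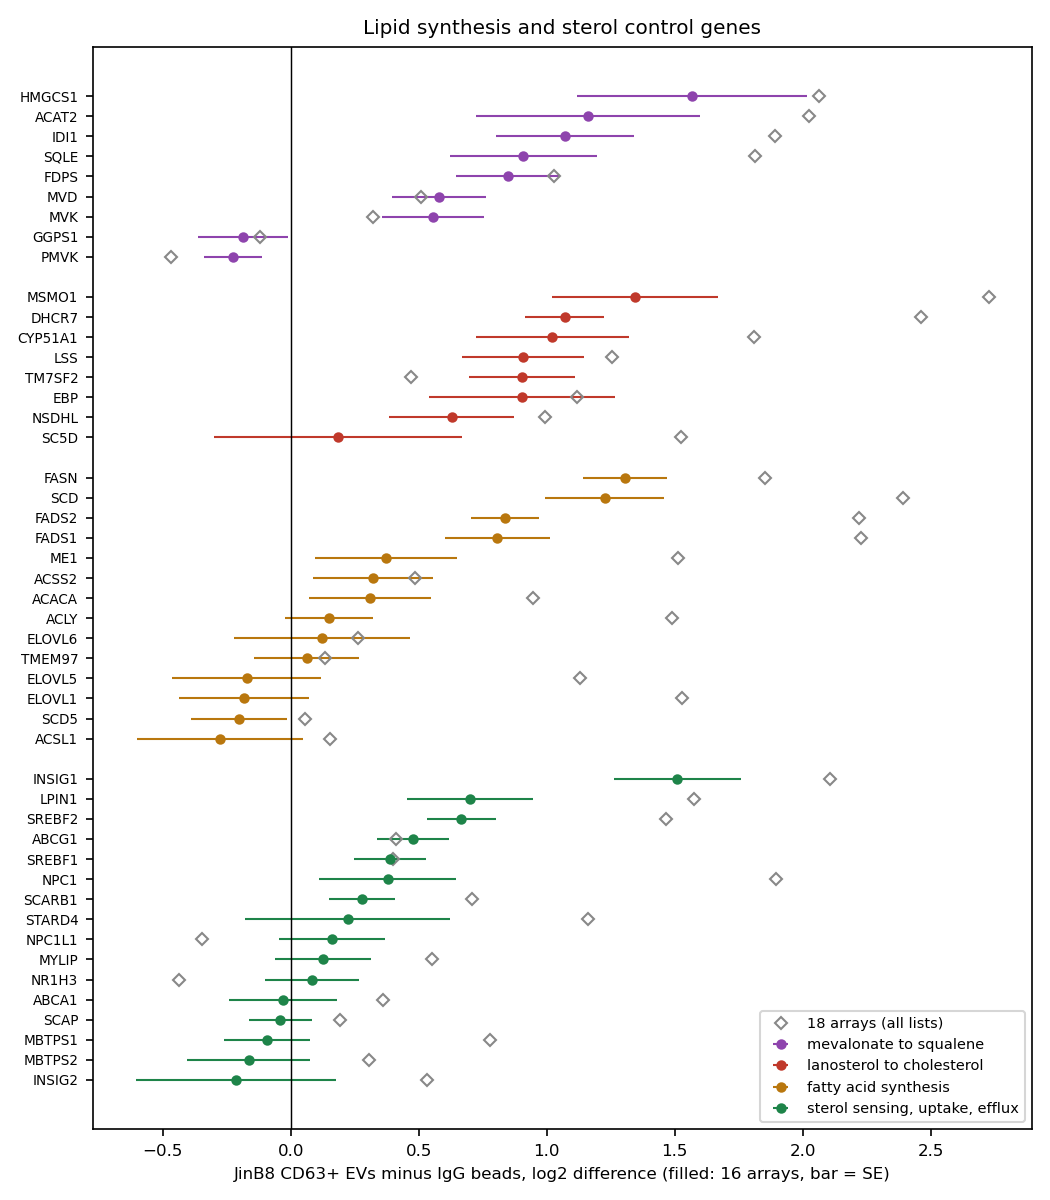
Log2 difference between JinB8 CD63+ EVs and IgG beads (x axis) for 47 genes of lipid synthesis and sterol control, 1 per row, in 4 groups by role. Filled points with bars are the 16-array differences with their SE, and hollow diamonds are the 18-array differences. Most cholesterol synthesis genes lie to the right of 0 in both fits, and PMVK and GGPS1 lie to its left in both.

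The promoters of 4 of these genes, from RefSeq on GRCh38.p14, are shown as examples. All 4 genes lay above the bead arrays, as did DHCR7 and FADS2, whose promoters are not shown. Each promoter shown holds the letters marked in it, so the examples do not stand for the lists, whose counts follow. Each window runs from 250 bases before to 50 after the start. Capitals mark CCAAT boxes on either strand (CCAAT or ATTGG), the site of NF-Y, a factor known to work beside SREBP, and in SREBF2 the sterol regulatory element instead. The windows are chr7:155297628-155297927 (INSIG1), chr4:165327419-165327718 (MSMO1), chr10:100346983-100347282 (SCD) and chr22:41832855-41833154 (SREBF2), all on the + strand.
INSIG1: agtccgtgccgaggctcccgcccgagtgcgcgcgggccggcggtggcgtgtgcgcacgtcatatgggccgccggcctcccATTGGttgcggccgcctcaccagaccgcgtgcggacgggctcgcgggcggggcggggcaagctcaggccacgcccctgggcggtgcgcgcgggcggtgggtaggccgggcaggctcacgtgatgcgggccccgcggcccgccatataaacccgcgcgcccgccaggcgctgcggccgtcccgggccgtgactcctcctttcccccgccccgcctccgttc
MSMO1: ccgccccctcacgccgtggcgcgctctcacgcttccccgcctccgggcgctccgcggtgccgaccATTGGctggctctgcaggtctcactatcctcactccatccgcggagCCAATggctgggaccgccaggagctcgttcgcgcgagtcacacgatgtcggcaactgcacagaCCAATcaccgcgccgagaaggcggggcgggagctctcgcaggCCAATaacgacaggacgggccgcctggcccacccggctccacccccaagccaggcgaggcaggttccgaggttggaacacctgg
SCD: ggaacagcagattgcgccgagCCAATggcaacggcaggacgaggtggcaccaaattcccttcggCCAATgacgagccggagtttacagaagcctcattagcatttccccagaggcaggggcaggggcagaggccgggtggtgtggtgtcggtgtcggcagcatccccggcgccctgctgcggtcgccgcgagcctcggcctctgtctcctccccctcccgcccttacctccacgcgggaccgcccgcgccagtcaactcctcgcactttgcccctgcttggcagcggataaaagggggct
SREBF2: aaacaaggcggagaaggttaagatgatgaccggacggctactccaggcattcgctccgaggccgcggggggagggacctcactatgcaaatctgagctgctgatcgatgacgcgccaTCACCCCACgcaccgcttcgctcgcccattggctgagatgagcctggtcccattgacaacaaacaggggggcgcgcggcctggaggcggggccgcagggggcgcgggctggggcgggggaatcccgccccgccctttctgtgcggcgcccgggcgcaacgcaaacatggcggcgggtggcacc

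The sterol regulatory element was searched as TCACNCCAC on both strands. It was in 2 of 64 promoters of the lipid genes (3.12%), beside 1.13% of 35116 promoters, and 1 of those 2 was that of SREBF2. None of the 22 promoters of cholesterol synthesis genes held it (0%). The letters CCAAT were in 33 of the 64 promoters of the lipid genes (51.6%), beside 34.6% of all promoters. By list, they were in 15 of 22 promoters of cholesterol synthesis genes (68.2%) and 12 of 22 of fatty acid synthesis genes (54.5%). For sterol sensing, uptake and efflux genes it was 6 of 20 (30%), and for the mitosis genes described next 47 of 69 (68.1%). These are counts of letters in short windows and show no binding.

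Mitosis genes lay lower with JinB8 CD63+ EVs than on bead replicates 1 and 2. Of 67 genes, 3 fell (BUB1B, ASPM and MKI67) and 0 rose, beside 0.0652% lower and 0.0271% higher over all genes. The 16-array difference was below 0 in all 67, beside 8922 of 18417 genes. The median difference was -0.55 in the 16 arrays and -0.25 in the 18, in which 56 of 67 were below 0. Alternatives in the 16 arrays were added after seeing the data. With the SD of each array's signals as a covariate, 63 of 67 were below 0, with a median of -0.38. Against untreated cells 63 of 67 were below 0, with a median of -0.46. The mean level of the list was 5.40, 5.45 and 5.26 with JinB8 CD63+ EVs, against 6.18, 5.76 and 4.84 with IgG beads. Bead replicate 1 was the highest and bead replicate 3 the lowest of the 6 arrays, so the size of the difference rested on which bead arrays were used. Against bead replicate 1 alone the median was -0.78, and against bead replicate 2 alone it was -0.36, with 61 of 67 below 0. In 9 of 67 genes (13.4%) the JinB8 CD63+ arrays lay below all 3 bead arrays, beside 2.24% of all genes. In 47 (70.1%) they lay below bead replicates 1 and 2, beside 12.9% of all genes.

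At the kinetochore, BUB1B, the checkpoint kinase BubR1, stood at 5.27, 4.90 and 4.78 with JinB8 CD63+ EVs, against 6.31, 5.99 and 5.12 with IgG beads. It fell by 1.17 ± 0.18 in the 16 arrays (limma adjusted p = 0.024), with a difference of -0.82 ± 0.38 in the 18, and bead replicate 3 lay among the JinB8 CD63+ arrays. The other 19 kinetochore and checkpoint genes were not called; CENPF differed by -1.03 ± 0.22, NUF2, of the Ndc80 complex, by -0.80 ± 0.18 and BUB1 by -0.96 ± 0.30. Of 22 spindle and cytokinesis genes, ASPM, a spindle pole protein, stood at 5.24, 5.57 and 5.31 with JinB8 CD63+ EVs, against 6.73, 6.54 and 4.66 with IgG beads, and fell by 1.26 ± 0.21 (limma adjusted p = 0.037), with a difference of -0.60 ± 0.46 in the 18 arrays. KIF20A, a kinesin of cytokinesis, differed by -1.48 ± 0.28 (limma adjusted p = 0.079), DLGAP5 by -1.17 ± 0.27 and the scaffold ANLN by -1.10 ± 0.32. SPAG5, also a spindle protein but outside the lists, stood at 4.60, 4.36 and 4.31 with JinB8 CD63+ EVs, against 5.77, 5.32 and 4.30 with IgG beads, a fall of 1.12 ± 0.19 (limma adjusted p = 0.042), with a difference of -0.70 ± 0.33 in the 18 arrays.

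Among 25 mitotic kinases, cyclins and proliferation markers, MKI67, which encodes the Ki-67 antigen, fell. MKI67 stood at 6.81, 6.78 and 6.61 with JinB8 CD63+ EVs, against 7.95, 7.72 and 6.96 with IgG beads, so that it was below all 3 bead arrays. The fall was 1.10 ± 0.19 in the 16 arrays (limma adjusted p = 0.042), and the difference in the 18 was -0.81 ± 0.44. FOXM1, a transcription factor of G2 and M genes, differed by -0.89 ± 0.17 (limma adjusted p = 0.083), PLK1 by -0.76 ± 0.17, CCNA2 by -0.75 ± 0.19 and TOP2A by -0.93 ± 0.24. Earlier in the cycle, 0 of 31 genes of G1/S and replication were called and their median was -0.24 in the 16 arrays and -0.16 in the 18, with MCM10 at -0.65 ± 0.15 and MCM4 at -0.68 ± 0.22. Replication-dependent histones had medians of -0.05 in the 16 arrays and -0.03 in the 18 over 33 genes, with 0 called. The p53 targets and arrest genes had medians of -0.02 in the 16 arrays and 0.28 in the 18 over 18 genes, and CDKN1A, which encodes the cyclin-dependent kinase inhibitor p21, differed by 0.19 ± 0.16.

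The promoters of the 3 called mitosis genes are shown for the cell cycle homology region, a short element known from promoters of G2 and M genes. Capitals mark its core letters, TTTGAA or, on the other strand, TTCAAA, in windows of the same length and build: chr15:40160819-40161118 on the + strand (BUB1B), and chr1:197146620-197146919 (ASPM) and chr10:128126374-128126673 (MKI67) on the - strand.
BUB1B: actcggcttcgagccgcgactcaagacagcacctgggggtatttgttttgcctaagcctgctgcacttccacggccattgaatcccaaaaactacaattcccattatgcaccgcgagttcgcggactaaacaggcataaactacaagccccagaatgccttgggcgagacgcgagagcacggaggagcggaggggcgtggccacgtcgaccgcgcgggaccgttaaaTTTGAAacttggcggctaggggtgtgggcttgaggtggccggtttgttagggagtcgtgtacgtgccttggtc
ASPM: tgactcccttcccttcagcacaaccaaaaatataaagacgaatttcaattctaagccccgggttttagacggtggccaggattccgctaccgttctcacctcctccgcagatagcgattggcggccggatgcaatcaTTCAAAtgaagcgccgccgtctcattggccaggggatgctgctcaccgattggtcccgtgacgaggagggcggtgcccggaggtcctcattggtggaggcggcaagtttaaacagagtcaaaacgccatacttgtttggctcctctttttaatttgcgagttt
MKI67: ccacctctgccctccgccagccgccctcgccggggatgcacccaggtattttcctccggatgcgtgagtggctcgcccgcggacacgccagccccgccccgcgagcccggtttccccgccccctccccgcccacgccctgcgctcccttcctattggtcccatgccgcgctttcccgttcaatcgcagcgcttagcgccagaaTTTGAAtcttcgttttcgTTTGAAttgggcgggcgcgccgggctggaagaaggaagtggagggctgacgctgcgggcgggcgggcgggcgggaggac

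The core letters were in 41 of 69 promoters of the mitosis genes (59.4%), beside 15.2% of all promoters and 4 of 64 promoters of the lipid genes (6.25%). In BUB1B they began at position -23 from the start, in ASPM at -113, and in MKI67 at -47 and -29. The motif counts use no array value and describe the lists only.

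Genes of the TGF-beta pathway and of the matrix supplied 4 of the 12 falls, in lists chosen with earlier results of these data known. Over all genes, 0.0652% were called lower. Of 27 ligands, receptors and transducers, TGFB2, which encodes the ligand TGF-beta 2, fell. It stood at 9.21, 9.07 and 8.998 with JinB8 CD63+ EVs, against 10.37, 10.45 and 6.55 with IgG beads, and fell by 1.32 ± 0.19 in the 16 arrays (limma adjusted p = 0.018). In the 18 arrays the difference was -0.03 ± 0.98, since bead replicate 3 lay below the JinB8 CD63+ arrays. INHBA, the activin A subunit, differed by -1.02 ± 0.20, BMP4 by -0.66 ± 0.18, the signal transducer SMAD3 by -0.41 ± 0.14 and the co-receptor ENG by -0.37 ± 0.12, none of them called. The list's median was -0.22 in the 16 arrays and 0.51 in the 18, so its sign followed bead replicate 3.

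Of 25 TGF-beta targets, TGFBI, a secreted adhesion protein named for its induction by TGF-beta, fell. TGFBI stood at 7.64, 7.76 and 7.73 with JinB8 CD63+ EVs, against 8.81, 8.69 and 7.38 with IgG beads. The fall was 1.04 ± 0.11 in the 16 arrays (limma adjusted p = 0.0016), and the difference in the 18 was -0.58 ± 0.36. The proteoglycans VCAN and BGN differed by -1.08 ± 0.20 and -0.67 ± 0.15, the actin-binding TAGLN by -0.80 ± 0.18, and the matricellular CCN1 and CCN2 by -0.63 ± 0.13 and -0.44 ± 0.13. In 13 of the 25 genes (52%) the JinB8 CD63+ arrays lay below bead replicates 1 and 2, beside 12.9% of all genes, and 0 of 25 lay below all 3 bead arrays. The list's mean level was 8.05, 8.19 and 8.05 with JinB8 CD63+ EVs, against 8.46 and 8.36 on bead replicates 1 and 2, and bead replicate 3 lay below all 5 of these arrays.

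In the matrix lists, COL12A1, a fibril-associated collagen, stood at 5.42, 5.27 and 5.29 with JinB8 CD63+ EVs, against 6.44, 6.17 and 5.21 with IgG beads, a fall of 0.98 ± 0.17 in the 16 arrays (limma adjusted p = 0.047), with a difference of -0.61 ± 0.26 in the 18. The other 20 collagens were not called. The median of the 21 was 0.04 in the 16 arrays, with 8 below 0, and -0.26 in the 18, with 18 below 0; with the SD of each array's signals (the array SD) as a covariate, an alternative added after seeing the data, it was -0.23 in the 16 arrays with all 21 below 0. The basement membrane chains COL4A1 and COL4A2 differed by -0.53 ± 0.12 and -0.41 ± 0.13. Of 20 collagen-modifying genes, P3H2, a prolyl 3-hydroxylase, stood at 6.66, 6.25 and 6.26 with JinB8 CD63+ EVs, against 7.84, 7.56 and 7.14 with IgG beads, below every bead array. P3H2 fell by 1.31 ± 0.20 (limma adjusted p = 0.022), with a difference of -1.13 ± 0.37 in the 18 arrays. The lysyl oxidase LOXL2 differed by -0.61 ± 0.13 and the collagen chaperone SERPINH1 by -0.40 ± 0.14, and the list's median was -0.31 in the 16 arrays and 0.36 in the 18. Of 17 matrix proteases and related enzymes none was called, with a median of -0.05 in the 16 arrays and 0.57 in the 18, and MMP10 at -1.37 ± 0.27 (limma adjusted p = 0.089).

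The remaining falls were in 4 genes outside those groups. EDN1, the precursor of endothelin-1, stood at 10.41, 10.47 and 10.23 with JinB8 CD63+ EVs, against 11.19, 11.13 and 6.42 with IgG beads, a fall of 0.79 ± 0.13 in the 16 arrays (limma adjusted p = 0.030). In the 18 arrays the sign turned, to 0.79 ± 1.11 (limma adjusted p = 0.87). RAB3B, a small GTPase of regulated secretion, stood at 8.35, 8.55 and 8.37 with JinB8 CD63+ EVs, against 9.34, 9.21 and 5.49 with IgG beads; it fell by 0.85 ± 0.14 in the 16 arrays (limma adjusted p = 0.030) and was at 0.41 ± 0.77 in the 18. KRT7, a simple-epithelial keratin, stood at 7.01, 7.07 and 6.91 with JinB8 CD63+ EVs, against 7.74, 7.72 and 6.06 with IgG beads, a fall of 0.74 ± 0.11 (limma adjusted p = 0.018), with a difference of -0.18 ± 0.32 in the 18 arrays. ADGRG4, an adhesion G-protein-coupled receptor, stood at 4.16, 4.09 and 4.47 with JinB8 CD63+ EVs, against 6.08, 5.82 and 3.76 with IgG beads, a fall of 1.71 ± 0.29 (limma adjusted p = 0.038), with a difference of -0.98 ± 0.61 in the 18 arrays. The median of all signals on the JinB8 CD63+ arrays was 5.03, 4.91 and 5.02. ADGRG4 and SPAG5 lay below it on each of them, at low signal.

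Endothelial identity and vessel genes gave no call. The 29 identity genes had mean levels of 8.11, 8.12 and 8.14 with JinB8 CD63+ EVs, against 8.22, 8.24 and 6.23 with IgG beads, and a median difference of -0.10 in the 16 arrays, with 8 of 29 above 0, but 0.56 in the 18, with 20 above 0. VWF, von Willebrand factor, differed by -0.51 ± 0.17, and KDR, the main VEGF receptor, by -0.10 ± 0.17. Genes of VEGF and angiopoietin signalling had medians of -0.14 in the 16 arrays and 0.52 in the 18 over 19 genes, and Notch genes -0.06 and -0.24 over 17. Venous and lymphatic genes had medians of -0.12 and -0.11 over 12, in which RELN was at -1.15 ± 0.24 in the 16 arrays. Coagulation genes had medians of -0.23 and 0.57 over 15, of opposite sign in the 2 fits. Among them THBD, the thrombin receptor thrombomodulin, stood at 7.84, 7.82 and 7.56 with JinB8 CD63+ EVs, against 7.40, 7.19 and 6.47 with IgG beads, and its difference of 0.44 ± 0.14 was not called.

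The axis of CD47, thrombospondin and nitric oxide was also not called in any of its 16 genes, beside 0.0271% higher and 0.0652% lower over all genes, and its median was -0.15 in the 16 arrays and 0.23 in the 18. CD47 of the HUVEC stood at 8.73, 9.08 and 8.23 with JinB8 CD63+ EVs, against 8.93, 8.92 and 6.09 with IgG beads, with overlap, and differed by -0.25 ± 0.39. THBS1, thrombospondin-1, differed by -0.35 ± 0.12 and the integrin subunit ITGA4 by -0.69 ± 0.24. NOS3, the endothelial nitric oxide synthase, stood at 7.54, 7.10 and 7.49 with JinB8 CD63+ EVs, against 6.93, 7.08 and 6.87 with IgG beads, just without overlap, a difference of 0.37 ± 0.14 (limma adjusted p = 0.67).

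Genes of inflammation and interferon gave no call. Of 33 type I interferon-stimulated genes, 32 were below 0 in the 16 arrays, with a median of -0.43 and MX1 at -0.51 ± 0.13. In 17 of the 33 (51.5%) the JinB8 CD63+ arrays lay below bead replicates 1 and 2, beside 12.9% of all genes. In the 18 arrays the median was 0.60, of the opposite sign. With the array SD as a covariate the 16-array median was -0.16. The interferon-gamma response had medians of -0.40 in the 16 arrays and -0.39 in the 18 over 11 genes, with the chemokine CXCL10 at 5.05, 6.52 and 4.74 with JinB8 CD63+ EVs, against 7.04, 6.86 and 4.02 with IgG beads, a difference of -1.52 ± 0.58. VCAM1, a leukocyte adhesion molecule, stood at 4.28, 4.32 and 4.20 with JinB8 CD63+ EVs, against 4.86, 4.93 and 4.90 with IgG beads. It lay below all 3 bead arrays, with the same difference in both fits, -0.63 ± 0.15 in the 16 arrays and -0.63 ± 0.18 in the 18, and was not called (limma adjusted p = 0.21 in the 16 arrays). VCAM1 was below the median of all signals on every JinB8 CD63+ and bead array. IL6 differed by -0.76 ± 0.16 and CXCL8 by -0.61 ± 0.19, within 23 chemokine and cytokine genes of median -0.17 in the 16 arrays and -0.15 in the 18. The 11 adhesion molecules had medians of -0.11 and 0.44.

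**Figure D4:**
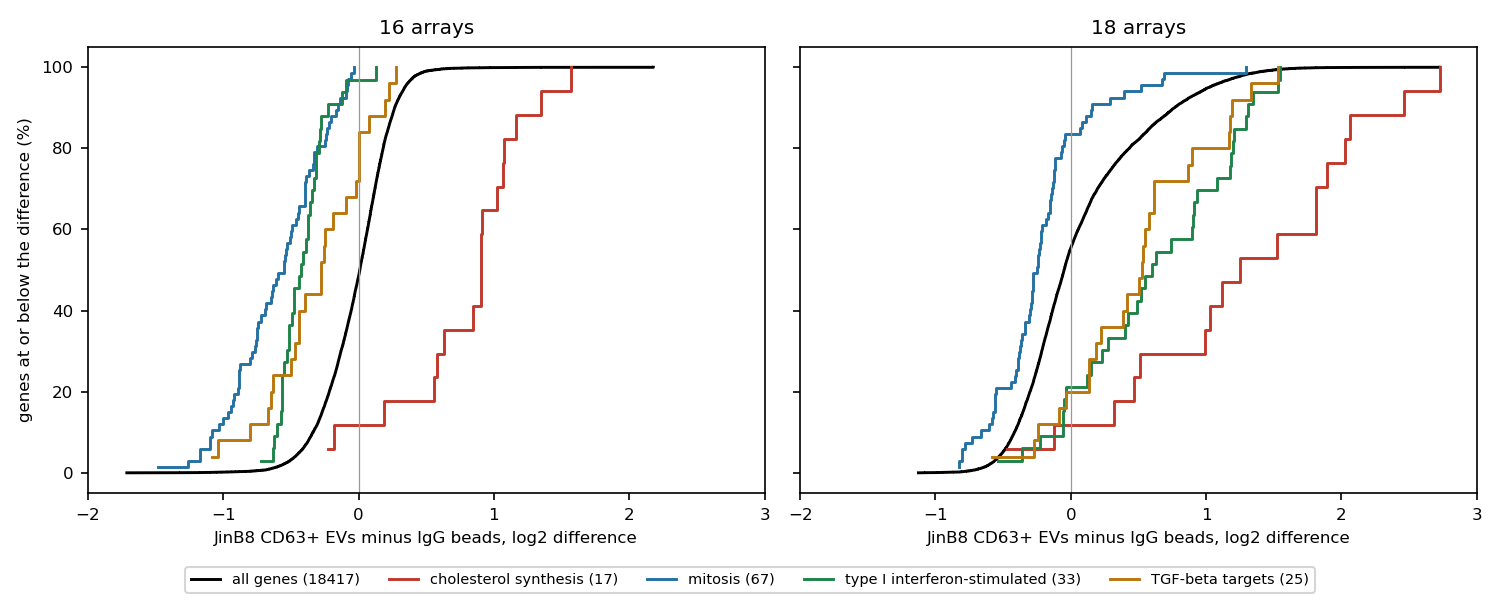
Share of genes (y axis, percent) at or below each log2 difference between JinB8 CD63+ EVs and IgG beads (x axis), in the 16 arrays (left) and the 18 arrays (right), for all genes and 4 lists. The cholesterol synthesis curve lies right of all genes and the mitosis curve left in both panels, while the interferon and TGF-beta target curves lie left of all genes in the 16 arrays and right in the 18.

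Markers of other cell types were examined because the vesicles came from T cells. None of 25 T cell markers was called, with mean levels of 4.32, 4.10 and 4.38 with JinB8 CD63+ EVs, against 4.10, 4.24 and 5.22 with IgG beads. CD3E stood at 3.70, 3.55 and 4.06 with JinB8 CD63+ EVs, against 3.44, 3.73 and 3.76 with IgG beads, with overlap. Their median difference was 0.09 in the 16 arrays, and that of monocyte markers was 0.16 over 12 genes, of fibroblast and smooth muscle markers 0.16 over 16, and of epithelial markers -0.03 over 10. The 18-array medians were -0.27 for T cell, -0.11 for monocyte, -0.29 for fibroblast and smooth muscle, and -0.28 for epithelial markers. Bead replicate 3 had the highest mean of all 4 lists among the 6 arrays. The endothelial markers were lowest on the same array, and the part of either in the 18-array values was not tested. The remaining lists (antigen presentation, antioxidant genes, metallothioneins, hypoxia and glycolysis, the unfolded protein response, the respiratory chain, ribosomal proteins, tetraspanins, and vault and Y RNAs) held no called gene. Their 16-array medians ran from -0.22 for antigen presentation to 0.39 for 7 vault and Y RNA genes. The 18-array medians of all 9 lists were above 0, among them 0.34 for antigen presentation, 0.98 for antioxidant genes, 0.78 for ribosomal proteins, 0.58 for tetraspanins, 0.40 for the respiratory chain and 0.15 for vault and Y RNAs.

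To see which differences belonged to JinB8 CD63+ EVs rather than to vesicles in general, the 16 arrays were also used for the contrasts with the other vesicle groups. These contrasts share the JinB8 CD63+ arrays with the one that chose the genes. Against Jurkat CD63+ EVs, from CD47-bearing cells, 0 of 18417 genes were called in either direction (0%), and 740 (4.02%) had an unadjusted p under 0.05. The difference was 0.33 for FASN (95% interval 0.02 to 0.64), 0.21 for INSIG1 (-0.27 to 0.68), -0.80 for SPAG5 (-1.17 to -0.44), -0.58 for MKI67 (-0.94 to -0.22) and -0.51 for TGFB2 (-0.87 to -0.14). For these 5 genes the limma adjusted p was 0.87, which does not show that the CD63+ EVs of the 2 donor lines act alike. The median over the 67 mitosis genes was -0.34 and over the 17 cholesterol synthesis genes 0.12, with 0 called in both. Against the same IgG beads, STC1 also rose with Jurkat CD63+ EVs, by 1.63 (limma adjusted p = 0.00015). INSIG1 (1.30), FASN (0.98), DHCR7 (0.95) and FADS2 (0.80) also lay above the beads there but were not called. The genes that fell with JinB8 CD63+ EVs also lay below the beads there, among them TGFBI (-0.77) and MKI67 (-0.52), and were not called.

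Against JinB8 MHC1+ EVs, of the same donor line but another capture, 2 genes were higher (0.0109%) and 32 lower (0.174%), with 3051 (16.6%) at an unadjusted p under 0.05. STC1 and MIR138-2 were higher. Of the 32 lower genes, 27 were small nucleolar, small Cajal body or vault RNAs, of 196 such genes tested. SNORA38B, a small nucleolar RNA, averaged 6.27 ± 0.26 with JinB8 CD63+ EVs and 8.62 ± 0.09 for JinB8 MHC1+ EVs (SD, n = 3 each), a fall of 2.35 ± 0.16. Its difference between JinB8 CD63+ EVs and IgG beads was -0.15. Over 58 small nucleolar RNAs the mean level was 6.81, 6.98 and 6.96 with JinB8 CD63+ EVs, 7.89, 7.88 and 7.72 for the MHC1+ capture of that line, and 6.83, 6.65 and 5.604 with IgG beads, so the JinB8 MHC1+ arrays were the ones set apart. The other 5 lower genes were CLDN11, UXT, CCL2, HIGD1A and EDN1. EDN1 averaged 10.37 ± 0.13 with JinB8 CD63+ EVs and 11.01 ± 0.10 for JinB8 MHC1+ EVs (SD, n = 3 each), a fall of 0.64 ± 0.11 (limma adjusted p = 0.036). TGFBI, at -0.53 ± 0.10, was at the threshold (limma adjusted p = 0.050). The median difference between the captures was -0.21 over the 17 cholesterol synthesis genes and -0.04 over the 67 mitosis genes. Against IgG beads, STC1 (1.08), INSIG1 (1.63), DHCR7 (1.14) and FADS2 (0.94) also rose with JinB8 MHC1+ EVs. BUB1B (-1.07), ASPM (-1.32) and MKI67 (-1.15) also fell with them, each of these genes at a limma adjusted p under 0.05. The remaining genes called for JinB8 CD63+ EVs against beads were not called for JinB8 MHC1+ EVs, FASN included (0.85, limma adjusted p = 0.050).

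**Figure D5:**
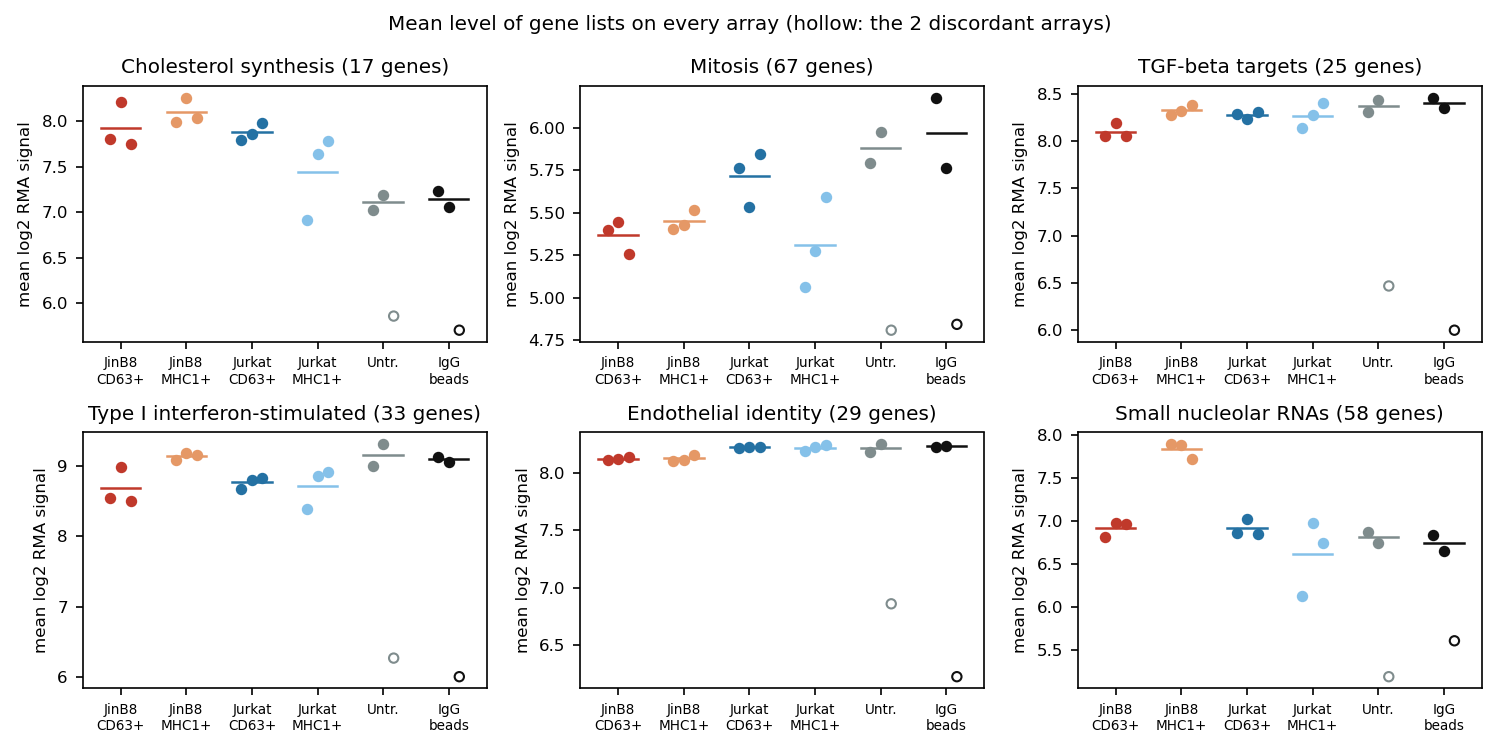
Mean log2 RMA signal (y axis) of 6 gene lists on every array, by group (x axis), with JinB8 CD63+ EVs at the left and IgG beads at the right. Points are arrays, lines are means without the 2 discordant arrays, and hollow points are those arrays. The cholesterol list lies near 8 in both JinB8 groups and the Jurkat CD63+ group and near 7 on the concordant control arrays. On the Jurkat MHC1+ arrays it lies at 6.91, 7.64 and 7.79. The small nucleolar RNAs stand out with JinB8 MHC1+ EVs.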

How the data were processed

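HUVEC RNA was measured on whole-transcript Affymetrix arrays. The authors used RMA in Affymetrix Expression Console, per the submitters' processing notes, with versions not given in the sources used. The deposited values were taken as log2 RMA signal, read from their range. RNA kits differ between the labels and the series design. An array has no depth; the number of arrays limits precision.

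Of 33297 probe sets, 12083 had no gene and 1754 several symbols in the platform annotation; these were left out. For each gene the probe set with the highest mean over the 18 arrays was kept, giving 18417 genes, of which 769 had more than 1. No level filter was used. A model with 1 mean per group was fitted with limma 3.58.1 in R 4.3.3 (lmFit, eBayes), to 18 arrays and to 16 without IgG beads replicate 3 and untreated replicate 3. Tests are two-sided moderated t, adjusted by Benjamini and Hochberg over all genes, called under 0.05. With 3 arrays against 3 or 2 an exact permutation test cannot go below p = 0.1.

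All called genes, the 10 next in each direction and members of the lists by smallest p or role could be named. Members and the 41 lists were chosen with earlier results of these data known. Lists are described by counts and medians. Alternatives were other filters, normalizations, weights and fits, all probe sets, and leaving out arrays. No batch is labelled. Serial numbers in the titles run on within each group, so batch and group cannot be told apart. Tables and plots used matplotlib 3.10.9, numpy 2.4.6 and pandas 2.3.3 in Python 3.11.15.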

Additional observations from a re-analysis of the deposited data

Results flagged for a closer look

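The differences below are those in which JinB8 CD63+ and JinB8 MHC1+ EVs, 2 captures from the same donor line, differed in a test of that difference in the 16 arrays (limma, adjusted over all genes). SNORA38B differed by -2.35, SNORA62 by -2.24, SNORA14B by -2.04, SNORD38B by -2.04 and SNORA14A by -1.86 on the log2 scale, JinB8 CD63+ minus JinB8 MHC1+ EVs. EDN1 differed by -0.64, STC1 by 1.10 and MIR138-2 by 0.59. The number of such genes, 34, lay between 7 and 714 when single arrays were left out, and was 714 without JinB8 CD63+ EVs replicate 2.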

How the results depend on the processing

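STC1 rose in the 18 arrays in every setting tried except quantile normalization again (1.65, limma adjusted p = 0.73) and the fit of only the groups compared (2.06, limma adjusted p = 0.95). The count of called genes in the 18 arrays, 1, became 0 in those 2 settings, 74 with array weights and 44 with the array SD as a covariate; leaving out each array in turn gave 1. In the 16 arrays the 17 called genes became 30 after quantile normalization again, 3 with arrays centred on their medians, 98 with array weights, 1 with only the groups compared, 54 without Jurkat MHC1+ EVs replicate 1, 8 with untreated cells as the control and, in a setting added after seeing the data, 80 with the array SD as a covariate. Leaving out 1 array gave 1 to 7: 1 without bead replicate 1, 2 without bead replicate 2, and 7, 5 and 4 without JinB8 CD63+ EVs replicates 1, 2 and 3. EDN1 (0.79) and RAB3B (0.41) reversed in the 18 arrays. Against JinB8 MHC1+ EVs the count of 34 became 14 without the lowest 50% of genes, 19 after quantile normalization again, 4248 with array weights, 56 with only the groups compared, 355 without Jurkat MHC1+ EVs replicate 1 and 7 to 714 leaving out single arrays. Against Jurkat CD63+ EVs the count was 0 in each setting. The cause of these changes was not tested. No paired analysis was possible because the labels carry no replicate numbers.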
